A study of Mus musculus with 18 samples.

Results

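Type 2 immunity was followed here through 9 mouse genes chosen by name: Gata3, Il4, Il5, Il13, Areg, Il1rl1, Il17rb, Ccl1 and Calca. All 9 were among the 32285 genes counted. They were read in droplet-based single-cell RNA counts of CD45-enriched cells from 3 sources: small bowel lamina propria, small bowel epithelium, and colon with both layers together. Mice of 3 genotypes at St8sia6, a sialyltransferase gene, were used: wild type (WT), heterozygous (het) and knockout (KO). In each of 3 repeats the cells came from 1 KO, 1 het and 2 WT mice, so a WT value pools 2 animals, and each genotype carried its own hashtag antibody before the cells of a tissue were combined for capture. The labels used here give no age, sex or strain. The 3 libraries of a tissue are numbered here in the order of their barcode endings. They cannot be matched to the libraries of another tissue, and p-values measure the spread between them.

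Gata3 encodes the transcription factor that both T helper 2 cells and group 2 innate lymphoid cells (ILC2) depend on. Epithelial alarm cytokines reach these cells through Il1rl1, the interleukin-33 receptor ST2, and Il17rb, a chain of the interleukin-25 receptor. The cells then release Il4, Il5 and Il13, which act on B cells, eosinophils and the intestinal epithelium, and Areg, the growth factor amphiregulin that also marks tissue-repairing regulatory T cells. Ccl1 is a chemokine that binds Ccr8, and Calca encodes calcitonin and, by splicing, the neuropeptide CGRP.

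Each cell with 200 to 8000 genes, 300 to 50000 UMIs and at most 20% mitochondrial UMIs (21286 of colon, 21347 of lamina propria, 16705 of epithelium) was placed in 1 of 4 populations by gene detection. Gata3 lymphoid cells had Gata3, Il7r or Thy1, none of the Cd3 genes and none of 10 genes of other lineages. The colon held 65, the lamina propria 356 and the epithelium 21 of them. Cd4 T cells (Cd3e and Cd4, no Foxp3) numbered 415, 246 and 1496 in the same order, and Foxp3 T cells (Cd3e and Foxp3) numbered 70, 64 and 67. All remaining cells were called other cells. Levels are given as CPM, the UMIs of a gene scaled to the UMI total of the population in 1 library, and a UMI is a counted RNA molecule. Fold changes are log2 values from edgeR with the standard error (SE), and a change was called at an adjusted p under 0.05.

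The sums of a barcode ending held 6316359 to 30418604 UMIs, with medians of 1420 to 5542 UMIs per cell. St8sia6 was lower in KO than in WT in all 3 libraries of the colon (7.33 to 9.89 against 12.4 to 19 CPM) and the lamina propria (30.7 to 38 against 52 to 67.4 CPM), while in the epithelium the ranges overlapped (1.1 to 4.77 against 1.85 to 4.97 CPM). A cell's own hashtag led in at least 95.6% of the cells of an ending in all but 3 endings. The exceptions were WT: 55.5% in lamina propria library 3, which also had the lowest median depth (1420 UMIs) and only 9 Gata3 lymphoid cells, and 84.4% and 72.9% in epithelium libraries 1 and 2. Assignment by hashtag share, set at 80%, kept fewer cells and was uneven between genotypes. In the colon it kept 18% to 30% of KO, 30.8% to 44.2% of WT and 63.2% to 96.7% of het cells. The ranges were 27.9% to 56.4%, 22% to 71.2% and 91.6% to 99.9% in the lamina propria. In the epithelium they were 54.9% to 75.6%, 45.3% to 80.4% and 96.9% to 100%. Values given below by hashtag share rest on these cells. The libraries of a tissue shared 197 barcodes in colon, 190 in lamina propria and 139 in epithelium.

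The Gata3 lymphoid population was not ILC2 cells alone. By marker lists that leave out the 9 genes, 47.5% of it in the lamina propria were ILC2-class cells (169 of 356), 34.8% were ILC3-class cells and 4.21% were NK or ILC1-class cells. In the colon the shares were 36.9%, 20% and 32.3%, and in the epithelium 5 of 21 cells were of the ILC2 class. Of 18 ILC2 markers 17 were detected in the lamina propria, with a summed level of 6482 to 7205 CPM, and Ptgdr2 was at 0. Unlike the class lists, these 18 include Gata3, which the gate required, and every other member except Il4. This count and sum were thus set in part by the gate and are a description. The mast cell genes Cpa3, Ms4a2, Fcer1a and Cma1 were at 0. Of 11 mast cell markers 3 were detected at all (summed 406 to 416 CPM), and basophil markers summed to at most 11.3 CPM. The gate left out cells with genes of other lineages, so these low levels were set in part by it. They are a description and do not show that mast cells or basophils were absent. Plasma cell transcripts summed to 8979 to 11845 CPM in the lamina propria population and 993 to 1311 CPM in the colon, and their part in the levels below was not tested. In sums of this kind, fewer positive cells and less RNA per positive cell cannot be told apart, so cells are counted where few of them carry a sum.

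**Figure D1:**
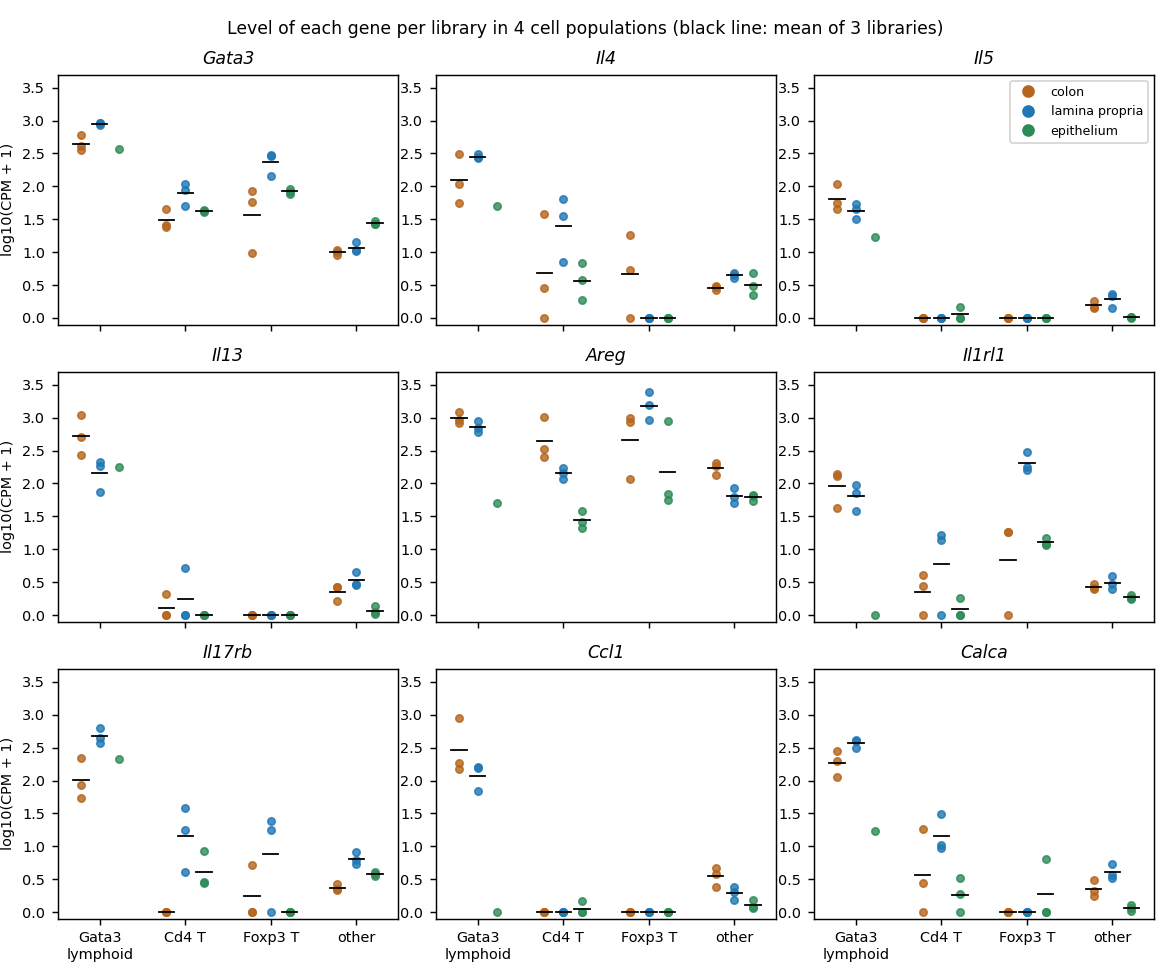
Level of each of the 9 genes in each library, as log10(CPM + 1), for the 4 populations of the 3 tissues. Points are libraries with at least 10 cells of the population and black lines are means. The epithelium has 1 such library for Gata3 lymphoid cells. Il5 and Ccl1 are at 0 in the Cd4 T cells of colon and lamina propria, and in the Gata3 lymphoid cells of these tissues they lie at 31.1 to 876 CPM.

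Gata3 itself defined the first population, so its level there is a description: 404, 599 and 359 CPM in the colon and 862, 932 and 906 CPM in the lamina propria. In Cd4 T cells it stood at 25.3, 23.2 and 43.6 CPM in the colon and 88.6, 48.8 and 107 CPM in the lamina propria. Foxp3 T cells of the lamina propria held 299, 293 and 145 CPM, all above the Cd4 T cells of the same tissue. That difference was called by edgeR (log2 1.54, SE 0.34, adjusted p = 0.0113), in a comparison where 3.4% of all genes were called, and it was lost without library 1 (adjusted p = 0.177) or library 2 (adjusted p = 0.275). Gata3 was also found in 14.5% of Cd8a-class and 17% of Trdc-class T cells of the colon, against 0.78% of colon B cells, which should lack it (median depths 5262, 5439 and 3891 UMIs). In the epithelium the Cd8a-class and Trdc-class T cells held 47.3% and 31.8% of all Gata3 UMIs.

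Il4, Il13 and Il5 lie in 1 cluster on mouse chromosome 11, with Il4 at 11:53612460-53618665, Il13 at 11:53631323-53634702 and Il5 at 11:53720794-53725103 (GRCm38.p6). The 250 bases before a RefSeq start were searched on both strands for GATA-type letters, which are AGATAA or AGATAG, or else the same with a leading T in place of A, TGATAA or TGATAG. Of 32851 mouse promoters 26.5% held a match, as did 7 of the 11 promoters of the 9 genes (63.6%). Counted by gene, 6 of the 9 held a match in at least 1 of their promoters. Gata3, Areg and Il17rb held none in this window, which says nothing of binding elsewhere. The following are shown for the cytokines detected in the same cells, for Ccl1, and for Il1rl1, whose upstream promoter held 5 matches, a number reached by 14 of the 32851 promoters (0.0426%). Sequences are from RefSeq (GRCm38.p6), read 5′ to 3′ on the gene's strand up to the base before the start, with the matches in capitals. They lie at chr11:53634703-53634952 (minus strand), chr11:53720544-53720793 (plus), chr11:82179813-82180062 (minus) and chr1:40429320-40429569 (plus).
Il13: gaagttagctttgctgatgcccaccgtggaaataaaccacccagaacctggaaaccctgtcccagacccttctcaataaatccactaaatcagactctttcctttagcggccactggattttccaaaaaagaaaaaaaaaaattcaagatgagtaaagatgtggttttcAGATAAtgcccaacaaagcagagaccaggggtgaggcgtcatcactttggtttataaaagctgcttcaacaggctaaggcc
Il5: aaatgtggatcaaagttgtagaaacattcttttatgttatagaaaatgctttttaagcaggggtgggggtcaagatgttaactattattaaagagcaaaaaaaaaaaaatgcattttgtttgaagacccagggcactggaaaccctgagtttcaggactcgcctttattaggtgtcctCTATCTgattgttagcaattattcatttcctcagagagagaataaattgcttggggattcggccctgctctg
Ccl1: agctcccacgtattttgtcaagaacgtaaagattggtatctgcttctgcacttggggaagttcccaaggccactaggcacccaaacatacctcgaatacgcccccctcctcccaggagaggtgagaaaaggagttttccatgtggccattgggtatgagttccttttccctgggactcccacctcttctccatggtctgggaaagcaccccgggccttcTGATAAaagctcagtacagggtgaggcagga
Il1rl1: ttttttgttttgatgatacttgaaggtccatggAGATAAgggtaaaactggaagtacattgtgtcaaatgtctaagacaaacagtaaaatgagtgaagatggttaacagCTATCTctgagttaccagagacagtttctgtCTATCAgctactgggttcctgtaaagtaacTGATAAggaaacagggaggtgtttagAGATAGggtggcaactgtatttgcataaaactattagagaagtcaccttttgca
Il13 and Il5 held 1 match each and Ccl1 held 1, about 30 bases before its start. A match is a run of letters and not a shown binding site.

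Il5 and Il13 were nearly undetected in Cd4 T cells of the colon and lamina propria. Il5, the eosinophil growth factor, was at 55.8, 43.8 and 106 CPM in the Gata3 lymphoid cells of the colon and 31.1, 53.1 and 44.7 CPM in the lamina propria. No UMI of Il5 was found in the Cd4 T cells of either tissue. Against a floor of 3 counts over those T cells, Il5 was at least 51.7-fold higher in the colon and at least 12.9-fold higher in the lamina propria.

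Il13, which drives mucus and tuft cell responses of the epithelium, was at 1088, 511 and 265 CPM in the colon population and at 73.5, 184 and 209 CPM in the lamina propria. Cd4 T cells held 1 Il13 UMI in each tissue, and Foxp3 T cells of the lamina propria held none. The ratio of Gata3 lymphoid to Cd4 T cells was 1070 in the colon (95% counting interval 190 to 42473) and 136 in the lamina propria (24 to 5391). edgeR called Il13 in both (log2 9.49, SE 0.48, adjusted p = 3.75e-08 and log2 6.71, SE 0.61, adjusted p = 4.45e-07), in comparisons where 11% of genes in the colon (5.97% higher) and 17.7% in the lamina propria (10.1% higher) were called. Il13 passed the filter on low counts only through the population where it is high, so it had to differ and these calls are a description. Few cells carried the colon value: 5 cells held 96.4% of the 193 Il13 UMIs and 92.9% of the 28 Il5 UMIs, whereas in the lamina propria the top 5 cells held 32.1% of 165 Il13 UMIs.

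Il4, the cytokine of class switching to IgE, was found in more Cd4 T cells. It stood at 55.8, 314 and 106 CPM in the colon population and at 266, 274 and 306 CPM in the lamina propria. Cd4 T cells were lower, at 1.81, 37.6 and 0 CPM in the colon and 63.3, 6.09 and 34.6 CPM in the lamina propria. In the lamina propria no library of the 2 populations overlapped (edgeR log2 3.26, SE 0.38, adjusted p = 7.62e-06). In the colon the gene was too low for the test, and 1 cell held 62.9% of the 35 Il4 UMIs of Cd4 T cells. Outside the gate, 64 of 135 Il4-positive cells of the colon, 76 of 241 of the lamina propria and 67 of 97 of the epithelium had a Cd3 gene. Of the mast-class cells 18 of 32 in the colon (56.2%) and 26 of 40 in the epithelium (65%) had an Il4 UMI, against 0.236% and 0.189% of B cells there. Median depths were 3732 and 4070 UMIs in mast-class cells and 3891 and 3967 in B cells.

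Areg, by contrast, was found in many cells. In the Gata3 lymphoid cells it was at 934, 1205 and 823 CPM in the colon and 599, 684 and 880 CPM in the lamina propria. Colon Cd4 T cells held 251, 334 and 1032 CPM, so the populations overlapped there and the difference missed the threshold (edgeR log2 1.22, SE 0.41, adjusted p = 0.0739). Lamina propria Cd4 T cells held 169, 116 and 142 CPM and the difference was called (log2 2.48, SE 0.27, adjusted p = 1.62e-06).

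Foxp3 T cells of the lamina propria held more Areg than either, at 2491, 1533 and 908 CPM. Against Cd4 T cells this was a log2 difference of 3.44 (edgeR, SE 0.28, adjusted p = 2.61e-07). In the colon the Foxp3 T cells stood at 114, 847 and 983 CPM and overlapped the Cd4 T cells (log2 0.28, SE 0.41, adjusted p = 0.897). In the epithelium the same contrast was called (log2 3.13, SE 0.48, adjusted p = 0.000462, 2.8% of genes called) but rested on library 1 with 876 CPM against 54.5 and 68 CPM in the others, and without it the value was 1.40 (adjusted p = 0.593).

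Epithelial cells carried most of the Areg in 2 of the 3 tissues. Of the colon's 34602 Areg UMIs 77.4% lay in epithelial-class cells, where 54.7% of 3364 cells had a UMI, and 80.1% of the epithelium's UMIs lay in that class. The share was 42.9% in the lamina propria. B cells gave the background of 5.53% with a UMI in the colon and 1.66% in the lamina propria at median depths that differed (8886 UMIs in colon epithelial-class cells, 3891 in B cells).

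The 2 alarm receptors divided the cells differently. Il1rl1 was at 139, 131 and 41.2 CPM in the colon population and 93.2, 70.8 and 37.3 CPM in the lamina propria. In Cd4 T cells it was at 1.81, 0 and 3.11 CPM and at 12.7, 15.2 and 0 CPM. The lamina propria difference was called (edgeR log2 2.89, SE 0.48, adjusted p = 0.000206), and in the colon, with 3 UMIs in the T cells, the ratio was 64.7 (counting interval 20.4 to 329).

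Foxp3 T cells of the lamina propria held the highest Il1rl1 level of the T cell populations, at 299, 176 and 157 CPM, from 4 of 21, 6 of 23 and 5 of 20 cells. KO mice gave 12, 16 and 16 of these cells, so the lamina propria values of Foxp3 T cells are mostly those of KO cells. The log2 difference from Cd4 T cells was 4.38 (edgeR, SE 0.49, adjusted p = 1.4e-05). Il1rl1 was too low in the Cd4 T cells to pass the filter on low counts through them, so this call is a description. Areg, Gata3 and Il1rl1 were the 3 of 8 tested members called in this contrast, where 3.4% of all genes were called. Ccl1, with no UMI in either population, and Il13, with 1 in all, could not be called. In the colon Il1rl1, Il17rb, Il4 and Il5 were too low for this test. None of the 5 members tested in the colon was called there by edgeR (1.56% of genes called, 1.02% higher, 0 members at an unadjusted p under 0.05) or by DESeq2. Of these 5, Ccl1 had no UMI in either population and Il13 had 1 in all, so they could not be called. Mast-class cells also had Il1rl1, in 65.6% of the colon's and 67.5% of the epithelium's, and held 55.8% of all Il1rl1 UMIs of the epithelium, while 0.142% of colon B cells had a UMI.

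Il17rb was at 83.7, 219 and 52.9 CPM in the colon population and at 438, 635 and 369 CPM in the lamina propria. No Cd4 T cell of the colon had a UMI, which makes the population at least 83.1-fold higher, and the T cells of the lamina propria held 16.9, 3.05 and 37.7 CPM (edgeR log2 4.70, SE 0.42, adjusted p = 1.21e-07). It was spread over many cells: the top 5 held 9.61% of the 541 UMIs in the lamina propria. Epithelial-class cells held 46.1% of the colon's and 58.7% of the epithelium's Il17rb UMIs, at low levels per cell (2.02% and 3.58% of cells).

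Ccl1 was at 181, 876 and 147 CPM in the colon population and at 67.8, 153 and 157 CPM in the lamina propria, and no Cd4 T cell of the 2 tissues had a UMI. The population was thus at least 292-fold higher in the colon and at least 37-fold higher in the lamina propria. edgeR called both, and DESeq2 neither (adjusted p = 0.0831 and 0.264). Ccl1 too passed the filter on low counts only through this population, so the edgeR calls are a description. The top 5 cells held 80.4% of the 158 colon UMIs and 68.1% of the 135 in the lamina propria. A few cells thus held most of its UMIs.

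Calca was at 279, 197 and 112 CPM in the colon population and at 314, 398 and 410 CPM in the lamina propria. Cd4 T cells stood at 1.81, 0 and 17.1 CPM and at 8.44, 30.5 and 9.44 CPM. Both differences were called by edgeR (log2 4.99, SE 0.74, adjusted p = 0.000374 in the colon and 4.58, SE 0.35, adjusted p = 6.87e-08 in the lamina propria), and the colon call was lost with DESeq2 (adjusted p = 0.0817). The counts were made per gene, so calcitonin and CGRP transcripts were not told apart.

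Leaving out Gata3, which the gate used, 7 of 7 tested members were called higher in Gata3 lymphoid than in Cd4 T cells of the lamina propria and 3 of 4 in the colon. Members that passed the filter on low counts only through the population where they are high had to differ, so these counts, and the calls of such members given above, are a description. Il5 was too low for the test in both tissues. A list of 13 immediate early and stress genes summed to 13891 to 16366 CPM in the lamina propria population and 6637 to 9199 CPM in its Cd4 T cells, and to 17624 to 25441 against 12378 to 13460 CPM in the colon. Their part in the members' levels was not tested.

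Other genes of the pathway also differed between these populations. Of 65 listed receptors, transcription factors, effectors, targets and neighbours 36 were tested in the lamina propria, 19 were higher and 7 lower in Gata3 lymphoid cells, where 10.1% of all genes were higher and 7.63% lower. Among the receptors 8 of 11 were higher, with Ccr8, the Ccl1 receptor, at log2 5.55, and 1 was lower, Icos (-0.99). Of 8 effectors 4 were higher, namely Arg1 (7.07), Csf2 (5.93), Lif (5.23) and Tnfsf11 (1.84), and 3 were lower, Il10 (-3.21), Penk (-3.09) and Ccl5 (-2.47). Of 12 transcription factors 5 were higher, among them Rora (1.66), which ILC2 cells require, and 3 lower, led by Bcl11b (-1.63). Icos, Tnfsf11 and Rora were picked for mention after their values were seen. In the colon 6 of 29 were higher, led by Klrg1 (6.70), Cxcl2 (5.23), Csf2 (5.20) and Ccr8 (3.56), and 2 lower, Bcl11b (-1.61) and Maf (-1.20), where 5.97% of all genes were higher and 5.01% lower. Between Foxp3 and Cd4 T cells of the lamina propria 7 of 36 were higher, led by Ccr8 (4.55), Klrg1 (4.29), Il10 (4.01) and Tox (2.05), and Ccl5 was lower (-3.30), where 1.83% of all genes were higher and 1.58% lower. Il7r was part of the gate and is not counted as a finding.

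The cells that carried the members were then read one by one. In the lamina propria Il13 was detected in 16 of 32 Il5-positive cells of the population (50%) and in 49 of 324 Il5-negative cells (15.1%). Il17rb was detected in 59 of 65 Il13-positive cells (90.8%), against 39.2% of the others. Calca was found in 88 of 173 Il17rb-positive cells (50.9%) and in 7.1% of the cells without Il17rb. Ccl1-positive cells were mostly Areg-positive (21 of 25) and Il17rb-positive (20 of 25).

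In the colon all 6 Il5-positive cells had Il13, and none of the 14 Il4-positive cells had Ncr1, a gene of NK cells and some ILC3 cells, against 28 of 51 without Il4. Deeper cells detect more genes, so these shares are descriptions and carry no test.

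The marker classes, which do not require Gata3, place the members in the ILC2 class as well. Of 351 ILC2-class cells of the lamina propria 80.6% had Il17rb, 54.4% Il4, 52.4% Areg, 41.3% Calca, 33% Il13, 17.7% Il5, 16.5% Il1rl1 and 11.7% Ccl1. Of 1251 ILC3-class cells 1.6% had Il17rb, 1.04% Il4 and 0.4% Il13, while 11.9% had Areg. B cells of the tissue gave 0.215% for Il17rb and 0.322% for Il4, with median depths of 2920 UMIs in the ILC2 class and 1957 in B cells. The ILC2 class made up 1.64% of lamina propria cells and held 72% of the tissue's Il5, 65.8% of its Il13 and 65.3% of its Il17rb UMIs. A class is a range of marker counts, and 136 of the 351 cells held just the 3 markers required.

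The gate missed part of this. Of 180 lamina propria cells with Il13, 65 were in the Gata3 lymphoid population and 115 outside it, 54 of them for a gene of another lineage, 30 for want of Il7r and Thy1, 18 for a Cd3 gene and 13 for want of Gata3. The marker lists placed 60 of those 115 in the ILC2 class. In the colon 6 of 32 Il5-positive cells were in the population, and 15 of the other 26 were of the ILC2 class.

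**Figure D2:**
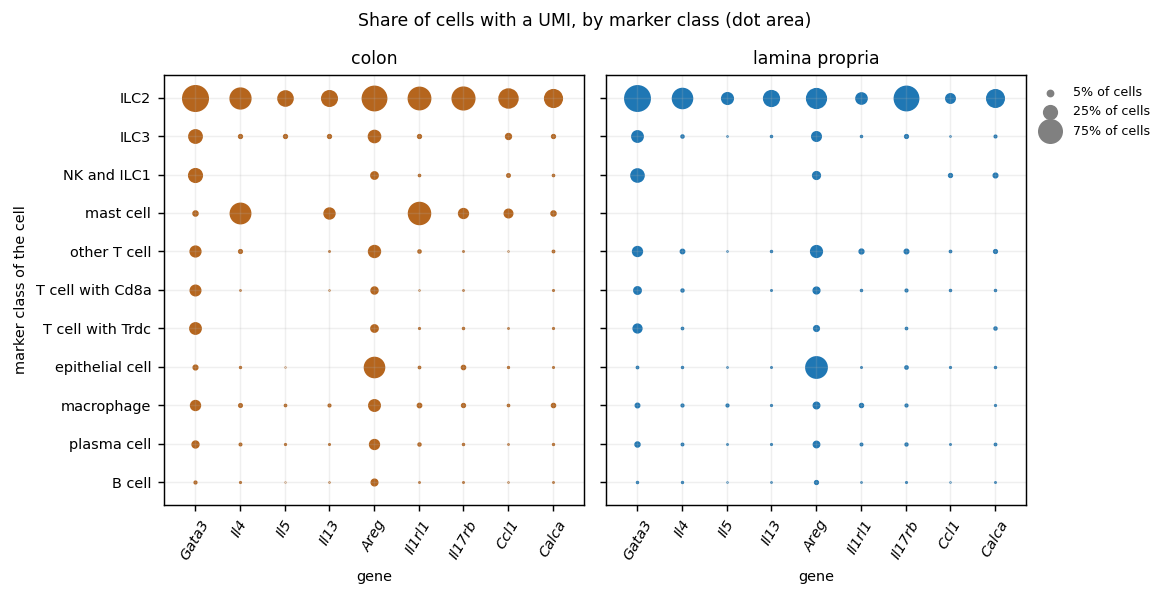
Share of cells with at least 1 UMI of each gene in 11 marker classes of the colon (left) and the lamina propria (right), with dot area for the share. The ILC2 row carries all 9 genes in both tissues, mast cells carry Il4 and Il1rl1 in the colon, and Areg is also large in epithelial cells (54.7% and 61.4%). The 9 mast-class cells of the lamina propria are too few to be drawn.

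Over the 34 sums of a library and population with at least 10 cells, the gene most like Il5 in its level was Il13 (Pearson r of log2 CPM 0.97), followed by Ccdc184 and Fam184b (both 0.93). The genes most like Il13 after Il5 were Ncr1 (0.94) and Ccdc184 (0.93). Scel (0.93), Il5 and Slc6a13 (both 0.92) were most like Ccl1. Pde7b (0.91), Fam184b (0.89) and Irak2 (0.88) followed Il17rb, and Stab2 (0.91), Fam184b (0.89) and Slc6a13 (0.88) followed Calca. For Il4 the closest were Fam184b, Plxdc2 and Csf2 (all 0.86), and for Gata3 Cdk11b and Gpr65 (both 0.90) and Nrip1 (0.89). Il1rl1 and Areg had weaker companions, Klrg1 (0.82), Rab43 and Nfkb1 (both 0.79) for the first and Ctla2b, Nfkb2 (both 0.83) and Tgif1 (0.81) for the second. These points share libraries and populations, and Ncr1 was found in none of the 12 Il13-positive cells of the colon population or the 65 of the lamina propria.

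Between tissues some members were higher and others lower. In Gata3 lymphoid cells Il17rb was higher in the lamina propria than in the colon, by log2 2.02 (edgeR, SE 0.38, adjusted p = 0.00189), with no overlap between the libraries of the 2 tissues. Calca was higher by 1.05 (SE 0.28, adjusted p = 0.0129), and without colon library 3 the value was 0.77 (adjusted p = 0.0524). Il13 was lower in the lamina propria, by -1.89 (SE 0.44, adjusted p = 0.00668), and the call was kept with DESeq2, with other gates and without any single library. In ILC2-class cells the Il13 value was -1.03 (edgeR, SE 0.33, adjusted p = 0.0263). The share of Gata3 lymphoid cells with Il13 was alike, at 18.5% in the colon and 18.3% in the lamina propria. After thinning to 1000 UMIs per cell it was 10.9% and 9.14%. A few cells carried the colon level, where 5 cells held 96.4% of the 193 Il13 UMIs.

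Ccl1 was lower by -1.72 (SE 0.54, adjusted p = 0.0289), a value that rested on colon library 2: without it the difference was -0.25 (adjusted p = 0.673), and DESeq2 did not call it (adjusted p = 0.191). In that library 5 of 10 het cells held 116 Ccl1 UMIs. Leaving out a lamina propria library also ended the call (adjusted p = 0.129, 0.0637 and 0.0582). In the 351 and 62 ILC2-class cells Ccl1 was lower by -2.97 (edgeR, SE 0.33, adjusted p = 9.74e-06), with 78.8, 225 and 194 CPM against 1267, 1696 and 788 CPM, and it was detected in 11.7% against 48.4% of the class. That class setting was added after the data were seen. Il1rl1 was not called between the tissues in Gata3 lymphoid cells (edgeR -0.45, SE 0.44, adjusted p = 0.474). It was detected in 67.7% of colon and 16.5% of lamina propria ILC2-class cells, and in 26.2% and 7.25% after thinning to 1000 UMIs per cell. These shares of the class were not tested.

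With Gata3 counted, 5 of 9 members were called between the tissues in Gata3 lymphoid cells, where 29.3% of all genes were called. The makeup of the population differed too (32.3% NK or ILC1-class cells in the colon and 4.21% in the lamina propria, 20% and 34.8% ILC3-class cells), and its part in these differences was not tested. The colon preparation also held epithelium, and tissue and capture cannot be told apart here. Of the pathway lists 31 genes were tested, and 6 were higher and 5 lower in the lamina propria, where 13.7% of all genes were higher and 15.6% lower. The largest changes were Zbtb16 (3.16), Il9r (2.59), Rora (1.15) and Tox (1.06) among the higher. Among the lower they were Ccr8 (-2.24), Ccl5 (-1.46), Crlf2 (-1.13) and Il2rg (-1.10).

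T cells differed between the tissues in other members. Foxp3 T cells of the lamina propria held more Il1rl1 than those of the colon, where the libraries stood at 0, 17.3 and 17.1 CPM (edgeR log2 3.75, SE 0.56, adjusted p = 0.00131, 13.1% of genes called, 8.52% higher), and more Gata3 (2.15, SE 0.54, adjusted p = 0.0196). In the epithelium Foxp3 T cells held 10.7, 10.9 and 13.6 CPM of Il1rl1 and were lower than in the lamina propria (-4.03, SE 0.53, adjusted p = 2.11e-05, 17.9% of genes called). Il1rl1 in both comparisons, and Gata3 against the colon, passed the filter on low counts only through the lamina propria, where they are high. Their calls are thus a description. These sums combine genotypes, and the mix differed. KO mice gave 12 of 21, 16 of 23 and 16 of 20 Foxp3 T cells in the lamina propria. They gave 4 of 13, 10 of 25 and 14 of 32 in the colon and 16 of 26, 8 of 25 and 5 of 16 in the epithelium. The part of genotype in these tissue differences was not tested. Cd4 T cells of the lamina propria had more Gata3 (1.47, SE 0.35, adjusted p = 0.0128) and less Areg (-1.88, SE 0.46, adjusted p = 0.014) than those of the colon, where 19.2% of genes were called and 9.85% were higher. Epithelial Cd4 T cells held less of both than those of the lamina propria (Areg -2.58, SE 0.26, adjusted p = 1.31e-05, and Gata3 -1.15, SE 0.25, adjusted p = 0.00418), where 25.8% of genes were called and 10.3% were higher. Het mice gave 275 of 431, 658 of 826 and 41 of 239 of these epithelial cells. In the lamina propria they gave 37 of 66, 27 of 86 and 8 of 94, and the part of genotype was not tested. For lamina propria against colon, the Areg difference in Cd4 T cells was 0.05 (edgeR, adjusted p = 0.891) when cells with genes of other lineages were kept.

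In other cells 8 of the 9 members were called between lamina propria and colon, and there 58.2% of all genes were. Il17rb (2.75), Calca (1.97), Il13 (1.62), Il4 (1.61), Il5 (1.45), Il1rl1 (1.09) and Gata3 (0.98) were higher in the lamina propria and Areg (-0.69) was lower. From lamina propria to epithelium all 9 were called (69.1% of genes), with 8 lower in the epithelium, from Areg (-1.10) to Il5 (-6.13), and Gata3 higher (0.34). Il5, Il13, Calca and Ccl1 passed the filter on low counts only through the lamina propria, where they are high, so their calls are a description. The epithelium held 5 Il5-positive and 7 Il13-positive cells among 16705.

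**Figure D3:**
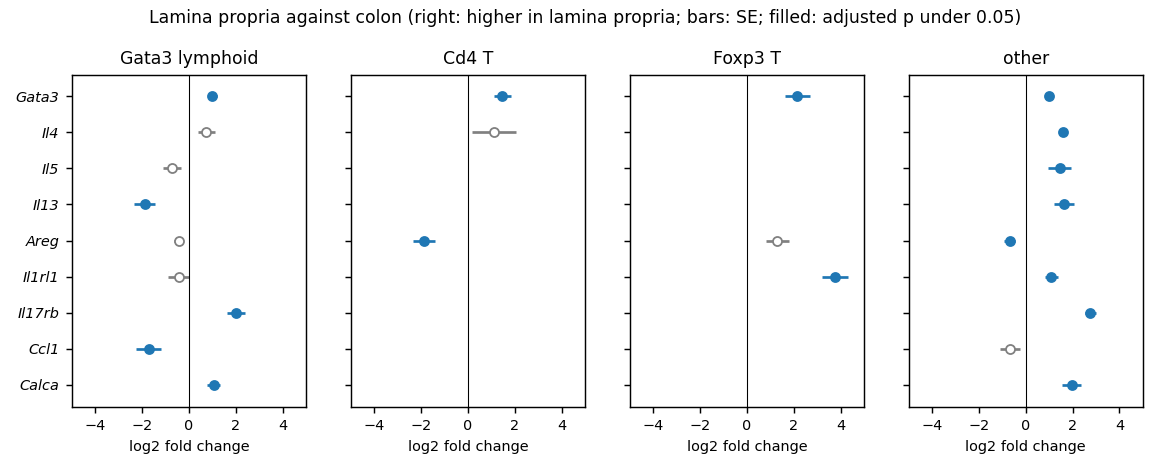
Log2 fold change of each gene between lamina propria and colon in the 4 populations, with SE as bars and filled points for an adjusted p under 0.05. Values to the right are higher in the lamina propria. Il17rb lies to the right and Il13 and Ccl1 to the left in Gata3 lymphoid cells. Genes too low for the test have no point.

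Levels were compared between genotypes within libraries, while shares of cells were compared without pairing the libraries. KO and WT lamina propria held 2.06% ± 0.458 and 1.15% ± 0.724 Gata3 lymphoid cells (SD, n = 3 each; two-sided exact permutation p = 0.2, smallest possible 0.1). KO lay above WT in each library, at 1.69%, 2.57% and 1.91% against 1.31%, 1.78% and 0.359%. The lowest share came from the WT ending with 9 of these cells, led by its own hashtag in 55.5% of its cells. After thinning each cell to 1000 UMIs the mean shares in KO and WT were 1.08% and 0.673% (n = 3, exact permutation p = 0.2). ILC2-class cells made up 1.54% and 1.76% (n = 3, exact permutation p = 0.7), with the opposite sign. In the colon the population was 0.329% ± 0.114 against 0.295% ± 0.254 (n = 3, exact permutation p = 0.8) and the ILC2 class 0.391% against 0.187% (n = 3, exact permutation p = 0.1). None of these differences passed the threshold, which this design cannot reach.

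Within the lamina propria population Ccl1 was the only member called between KO and WT. It stood at 182, 331 and 204 CPM in KO and at 17.9 and 20 CPM in the WT sums of libraries 1 and 2, and the 9 WT cells of library 3 were too few to fit and held no Ccl1 UMI. The KO sums were all above the WT sums. The log2 difference was 3.61 (edgeR, SE 0.60, adjusted p = 0.000799), in a fit where 1.86% of genes were called. Ccl1 passed the filter on low counts only through the KO sums, where it is high, so this call is a description. Het sums stood at 15.1, 9.43 and 92.7 CPM, and het against WT was not called (0.68, SE 0.86, adjusted p = 0.937).

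The Ccl1 value rests on 18 KO cells. UMIs were found in 5 of 39, 9 of 61 and 4 of 61 KO cells, and in 1 of 39 and 2 of 43 WT cells with 2 and 3 UMIs. A single cell held 12 of 20, 36 of 65 and 20 of 36 UMIs of the KO sums. Without that cell the KO sums were at 74.5, 151 and 93.5 CPM, still above both WT sums. DESeq2 gave 3.46 (SE 1.00, adjusted p = 0.07) and did not call it, and with lineage-positive cells kept it was 4.09 (adjusted p = 0.166). ILC2-class cells, a setting added after the data were seen, gave 3.38 (edgeR, SE 0.44, adjusted p = 0.000129).

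None of the other 8 members passed the threshold, and 4 of the 9 had an unadjusted p under 0.05. Il5 stood at 9.11, 25.5 and 5.66 CPM in KO against 53.6 and 107 CPM in WT, so the groups did not overlap, but the difference of -2.89 missed the threshold (edgeR, SE 0.91, adjusted p = 0.108) and het sums spread from 28.3 to 154 CPM. Areg was at 765, 887 and 657 CPM in KO and 295 and 454 CPM in WT (0.91, SE 0.33, adjusted p = 0.17). Il13 (-0.56, SE 0.42), Il4 (-0.40, SE 0.30), Il17rb (-0.35, SE 0.26) and Calca (-0.30, SE 0.38) lay within 2 SE of 0, and Il1rl1 was at 0.90 (SE 0.59). Among 31 tested pathway genes Lif (3.25, adjusted p = 0.0018) and Csf2 (1.60, adjusted p = 0.00592) were higher in KO and Tox (-1.51, adjusted p = 0.00126) was lower. No member was called between het and WT by edgeR (0.0371% of genes called, 3 members at an unadjusted p under 0.05) or DESeq2.

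**Figure D4:**
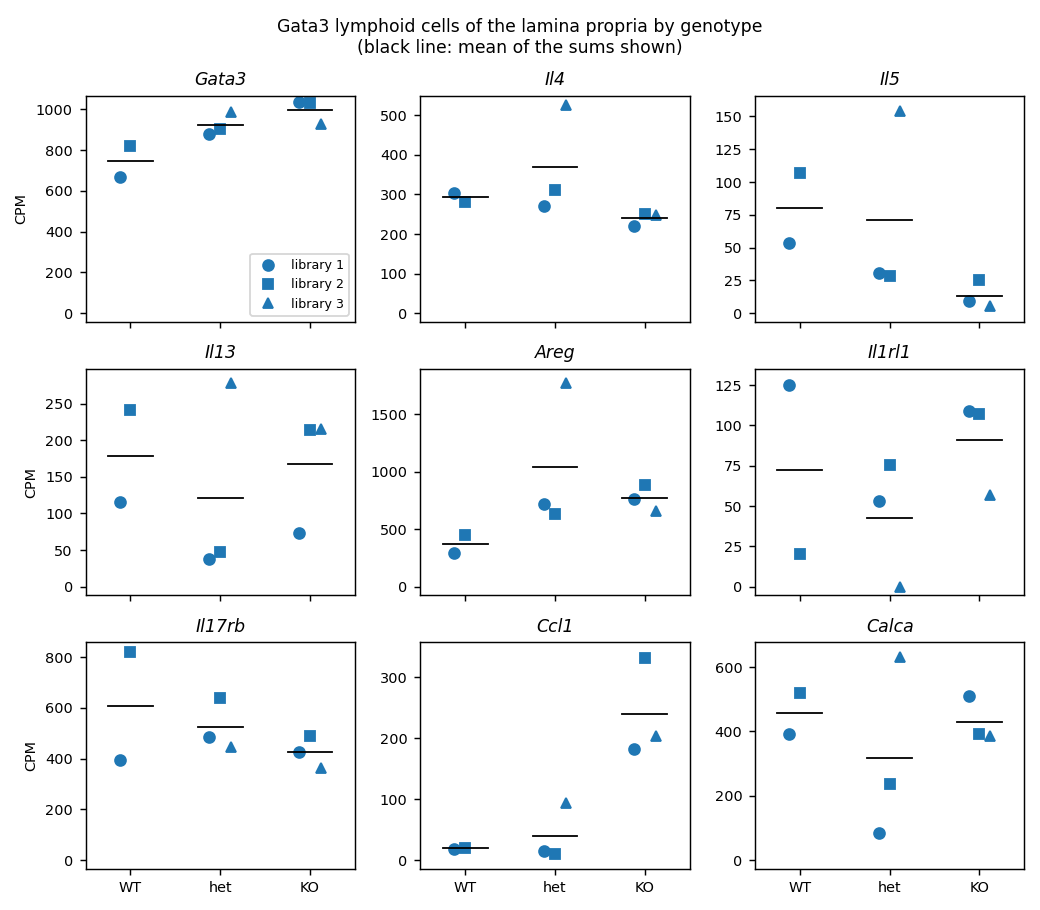
CPM of each gene in the Gata3 lymphoid cells of the lamina propria by genotype, with a symbol for each library and black lines for means. WT library 3 had 9 cells and is not shown. For Ccl1 the 3 KO sums (182 to 331 CPM) lie above the WT sums, and for Il5 the KO sums (5.66 to 25.5 CPM) lie below them.

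Other populations of the colon and the lamina propria gave no member by edgeR. Of 9 members tested in other cells, 1 in the colon and 3 in the lamina propria had an unadjusted p under 0.05 between KO and WT, and 0% of all genes were called in either tissue. Il17rb was the clearest in the lamina propria, with 3.21, 4.48 and 2.21 CPM in KO, 4.1, 3.93 and 3.38 CPM in het and 7.58, 12.9 and 9.2 CPM in WT. Both KO and het lay below every WT sum (edgeR -1.71, SE 0.22, adjusted p = 0.106 and -1.48, SE 0.23, adjusted p = 0.171). DESeq2 called Il17rb in both (-1.72, adjusted p = 2.77e-07 and -1.49, adjusted p = 3.7e-05) and Il4 in KO (-1.78, SE 0.42, adjusted p = 0.00163).

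In het, 5 of the 9 members in colon other cells and 3 in those of the lamina propria had an unadjusted p under 0.05 against WT, with 0% of genes called by edgeR. Ccl1 in colon other cells was at 6.64, 11.2 and 4.57 CPM in het, from 5, 6 and 3 cells, at 3.85, 2.47 and 1.08 CPM in KO and at 0.299, 1.64 and 0.0896 CPM in WT. The het sums lay above every WT sum, while KO and WT overlapped. DESeq2 called the het difference (adjusted p = 2.69e-06) and edgeR did not (log2 3.79, SE 0.68, adjusted p = 0.329).

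In Cd4 T cells too few members passed the filter for more than 3 tests. Those of the lamina propria were tested for Areg, Gata3 and Il4 and none was called by edgeR or DESeq2 (2 members at an unadjusted p under 0.05). In the colon Areg alone was tested. It stood at 115, 390 and 496 CPM in KO, 151, 136 and 666 CPM in het and 423, 325 and 1691 CPM in WT, and the groups overlapped. For het the difference was -1.29 (edgeR, SE 0.31, adjusted p = 0.599, 0.0223% of genes called). For KO the adjusted p was 1 in edgeR, and by each cell's hashtag share the KO difference was 0.03 (adjusted p = 0.999).

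In the epithelium the other cells differed in 3 of 5 tested members between KO and WT and in 4 between het and WT, and so did 30.6% and 28.9% of all genes (11.3% and 10.3% higher). Areg stood at 26.8, 30.4 and 29.4 CPM in KO, 33.4, 31.3 and 31.4 CPM in het and 171, 116 and 93 CPM in WT. KO and het were below every WT library (edgeR -2.19, SE 0.21, adjusted p = 0.0107 and -2.04, SE 0.21, adjusted p = 0.0114). Il17rb was lower too (-1.95, SE 0.37, adjusted p = 0.0139 and -2.13, SE 0.38, adjusted p = 0.0129), and Gata3 was higher (0.74, SE 0.18, adjusted p = 0.0259 and 0.79, SE 0.18, adjusted p = 0.0226). Il1rl1 was called lower in het (-2.10, SE 0.58, adjusted p = 0.0367) from 3, 2 and 3 UMIs, was not called by DESeq2 (adjusted p = 0.0648), and the difference between KO and het was not tested.

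Epithelial-class cells made up 5.48%, 7.28% and 6.45% of KO cells, 6.79%, 5.02% and 7.88% of het cells and 31.4%, 33.8% and 14.3% of WT cells in these libraries. Within epithelial-class cells Areg was at 133, 182 and 154 CPM in KO 146, 233 and 175 CPM in het and at least 229 CPM in each WT library. KO lay below every WT library, and het library 2 lay above the lowest WT library. In the rest of the other cells it was at 12.6, 7.96 and 9.87 CPM in KO and 14, 20.5 and 8.63 CPM in WT, which did overlap. Gata3 in that rest was at 33.1, 32.8 and 33.4 CPM in KO and 25.8, 28.6 and 30.4 CPM in WT. The share of epithelial-class cells moved with these differences, and its part in them was not tested. Of 50 tested pathway genes 15 were higher in KO, led by Penk (2.81), Cxcl2 (2.34), Il2 (1.72) and Icos (1.19), and 9 lower, led by the goblet cell genes Retnlb (-6.50), Clca1 (-3.27) and Muc2 (-2.75) and by Egfr (-1.93), where 11.3% of all genes were higher and 19.3% lower. The Areg call was lost without library 1 (-1.86, adjusted p = 0.0798) or library 2 (-2.24, adjusted p = 0.138), the libraries whose WT endings were led by their own hashtag in 84.4% and 72.9% of cells, and the Gata3 and Il17rb calls were lost with it. By hashtag share Areg was at -1.76 in KO (adjusted p = 0.00487) and at -1.07 in het (adjusted p = 0.0699).

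**Figure D5:**
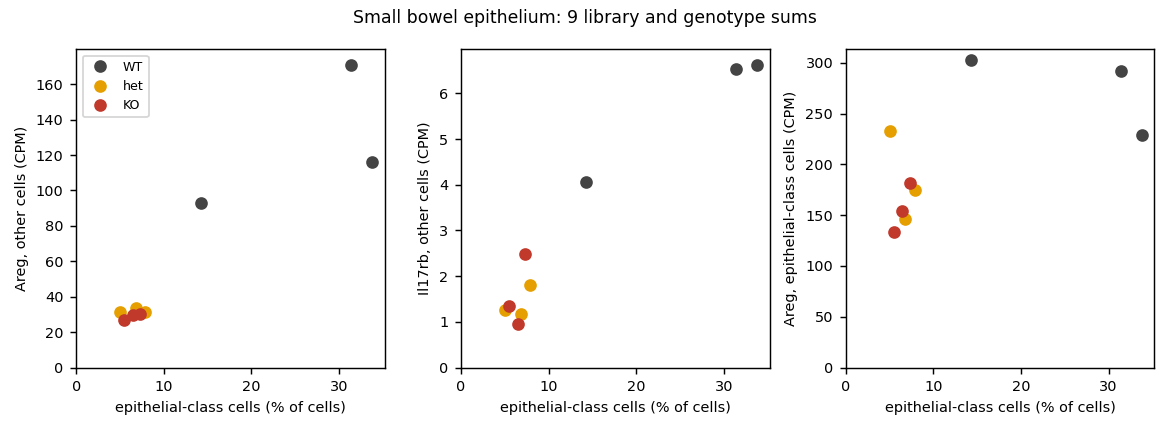
Small bowel epithelium, 9 sums of a library and genotype: the share of epithelial-class cells against the CPM of Areg (left) and Il17rb (middle) in other cells, and Areg within epithelial-class cells (right). The 3 WT sums have 14.3% to 33.8% epithelial-class cells and 93 to 171 CPM of Areg. KO and het sums lie together at low values, and the right plot shows 133 to 233 CPM for them.

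In epithelial Cd4 T cells Areg and Gata3 were tested, and neither was called between KO and WT by edgeR (0.719% of genes called, 1 member at an unadjusted p under 0.05) or DESeq2, nor between het and WT (3.42% of genes called, 0 members at an unadjusted p under 0.05). Of these gated cells 63.6% were of the Cd8a class, so the gate did not separate Cd4 from Cd8a cells there. The 21 Gata3 lymphoid cells of the epithelium were too few to compare by genotype. They had Il4 in 5 cells, Il5 in 2, Il13 in 2, Areg in 6, Il17rb in 6, Calca in 4, Il1rl1 in 1 and Ccl1 in none.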

How the data were processed

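The authors deposited raw UMI counts per gene and cell for each tissue, with hashtag counts, and the other columns used are gene and barcode names as deposited. Per the submitters' processing notes, Cell Ranger and Seurat were used with mm10, and versions are not given in the sources used here. Per the labels' protocols the chemistry was 5' v2. All 9 barcode endings of a tissue were grouped into 3 libraries, within each of which no barcode occurs in more than 1 ending, and an ending took the genotype of the hashtag with the highest median count. No column of another sample was used, doublets were not called, and free RNA was not removed.

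Counts were summed per ending (or library) and population, and sums of under 10 cells were left out. edgeR 4.0.16 (R 4.3.3, TMM, filterByExpr, quasi-likelihood test, Benjamini-Hochberg adjustment over all genes tested) was the main test, with the library as a block within a tissue because its genotypes and populations shared a capture. Tissues were compared without a block. DESeq2 1.42.0 was an alternative, and the fits were tested on simulated data. The SE of a fold change is its size divided by the square root of F. Shares were compared by exact permutation tests, with the libraries not paired. Intervals are exact, at 95%, and cover counting error only, and a count of 0 allows up to 3 counts.

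The text names all 9 genes, up to 4 pathway genes with the largest called change in each direction (for the comparisons of Gata3 lymphoid cells, of lamina propria Foxp3 T cells and of KO in epithelium other cells only, a narrower use of the rule than first set), and the 3 genes most like each member. The members and lists were chosen with earlier results of these data known.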

Additional observations from a re-analysis of the deposited data

Results flagged for a closer look

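In 4 cases the KO to WT ratio of a member had 1 sign in every library of a tissue that gave a ratio and the opposite sign in those of another. The values are means over libraries of the log2 ratio of CPM + 1, and the differences between tissues were not tested. Gata3 in Cd4 T cells was at 0.36 in the colon and -1.50 in the lamina propria, where only libraries 2 and 3 gave a ratio. Il4 in other cells was at 0.79 in the epithelium and -1.24 in the lamina propria. Areg in other cells was at 0.52 in lamina propria and -2.05 in epithelium, where the share of epithelial-class cells also differed by genotype. Il17rb in other cells was at 0.40 in colon, -1.35 in lamina propria and -1.40 in epithelium.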

How the results depend on the processing

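Counts are of tests of a member in a population and tissue. KO against WT gave 4 calls, 7 with every gene of at least 1 count, 7 when cells were assigned by hashtag share and 1 to 6 without a library. Het against WT gave 4, 0 by hashtag share and 0 to 4 without a library. Lamina propria against colon gave 17, and 11 to 16 without a library. Gata3 lymphoid against Cd4 T cells gave 10, leaving out Gata3, and 16 with every gene of at least 1 count, without lineage exclusion or with the ILC2 class (added after the data were seen), and 13 without any library. Foxp3 against Cd4 T cells gave 4, and 2 to 4 without a library. Without the replicate block the counts were 4, 4, 10 and 5 in the order KO, het, Gata3 lymphoid and Foxp3. The share of Gata3 lymphoid cells, KO minus WT, was 0.034 percentage points in the colon, -0.00903 by hashtag share and -0.0234 to 0.118 without a library. In the lamina propria it was 0.905, -0.214 with the ILC2 class and 0.583 to 1.17 without a library.

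Single values that changed sign were Areg in colon Cd4 T cells (0.03 by hashtag share) and Areg between lamina propria and colon Cd4 T cells (0.05 without lineage exclusion). In lamina propria Gata3 lymphoid cells Calca was 0.27 without lineage exclusion, 0.44 with the ILC2 class and -0.64 to 0.01 without a library, Il4 0.13 and Il13 0.01 with 2 Gata3 UMIs required, and Il17rb -0.67 to 0.17 without a library. Il4 in lamina propria Cd4 T cells was 0.71 without the block, 3.97 without library 3 and 0.26 with DESeq2. Gata3 in epithelial Cd4 T cells was 0.02 with stricter T cell genes and 0.08 without lineage exclusion. Of all genes, edgeR and DESeq2 called 50 and 14 between KO and WT in lamina propria Gata3 lymphoid cells and 0 and 625 in its other cells, 0 and 111 in colon other cells. The causes were not tested. At this depth Il5 could not be tested against Cd4 T cells in the colon or the lamina propria.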
